A study of Mus musculus with 18 samples.

Results

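The genes described here encode the initiation and elongation factors of cytosolic translation, measured as male-to-female expression ratios in mouse hearts. They were taken as every autosomal gene whose symbol on the array begins with Eif or Eef, apart from symbols beginning with Eif2s3, with a value on 9 or more of the 18 arrays. Of 50 Eif and Eef symbols on the array, 47 met the rule, out of 8410 named genes with values on 9 or more arrays. Of the 47 genes, 42 had a value in each of the 9 groups and were tested. The other 5 (Eef2k, Eif2b2, Eif2b3, Eif5a2 and Eif6) are described by their values.

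The groups were mice under chronic constant hypoxia (CCH), mice under chronic intermittent hypoxia (CIH) and control mice, each at 1, 2 and 4 weeks. Each of the 9 groups had 2 arrays, so each condition had 6 arrays. On every array the heart cDNA of a male, labelled with Cy5, was hybridised together with that of a female, labelled with Cy3, and both came from the same condition and duration. The labels give no strain, age or oxygen level. Nothing in them states that 2 arrays of a group used different mice, and p-values here reflect array-to-array spread, which may be technical. On the log2 scale the median of each array, which ran from -0.17 to 0.02 before this step, was subtracted. A value of 0 therefore means the median spot of the array and not equal signal from both hearts. Higher and lower in the male heart are meant relative to that median. Each value is a log2 ratio. The labels do not state its direction. It was taken as male over female because the male is the Cy5 channel and the Y-linked gene Eif2s3y was positive on 17 of 18 arrays, with a mean of 1.52.

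Sex and dye cannot be told apart in the ratio itself, since the male heart was always in Cy5. A difference between conditions is a difference in the ratio and does not say in which sex a transcript changed. In whole hearts, fewer cells of a type and less RNA per cell cannot be told apart. Values were present for 20489 to 24512 of 28704 spots on the 1-week arrays, 15802 to 19720 on the 2-week arrays and 12650 to 17904 on the 4-week arrays. Arrays correlated with each other over all spots between -0.53 and 0.74 (median 0.17), and the lowest of these values means that some arrays ran opposite to each other. The array named CIH 1 week replicate 1 is a 1-week CIH array by its title, while its source names say 2 weeks of CCH. The title was followed, and results that depend on this array are also given without it or regrouped. Control 2 weeks replicate 1 carries the code 1A in its title although the title says 2 weeks, and it was kept at 2 weeks. Of 9 heart marker genes, 2 had any value and none could be tested, so the labelled tissue could not be checked, and a ratio of 2 hearts would not show it.

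Translation begins when initiation factors bring the initiator tRNA, the mRNA and the small ribosomal subunit together. eIF2 carries the tRNA and is recharged by the exchange factor eIF2B, and kinases that phosphorylate eIF2 slow this step under stress. eIF3, a large multi-subunit complex, scaffolds the small subunit, while the eIF4 factors bind the mRNA cap and unwind the leader. The elongation factors eEF1 and eEF2 then deliver tRNAs and move the ribosome along the mRNA. Low oxygen is known to restrain translation in many cells through eIF2 phosphorylation and through the mTOR pathway. These controls act largely on the proteins, which RNA ratios do not measure.

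Among the 42 tested genes, the means furthest from 0 over all 18 arrays were those of the eIF3 genes Eif3k, Eif3h and Eif3i. Each rests on a single spot and lay below 0, with lower signal from the male heart relative to the array median. Eif2b2, which was not tested, averaged -0.57 on 14 arrays. Of the 42 genes, 3 lay above 0 and 8 lay below 0 by limma with Benjamini-Hochberg adjustment over all 10272 units. That is 26.2% of the genes, against 27.7% of all units tested (8.99% higher and 18.7% lower). The share was near that of the array as a whole. At an unadjusted p under 0.05 the genes numbered 11 (26.2%), against 41.1% of all units. The median of the 42 mean ratios was -0.03, against -0.04 for all units, and the median size was 0.07, against 0.12.

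**Figure D1:**
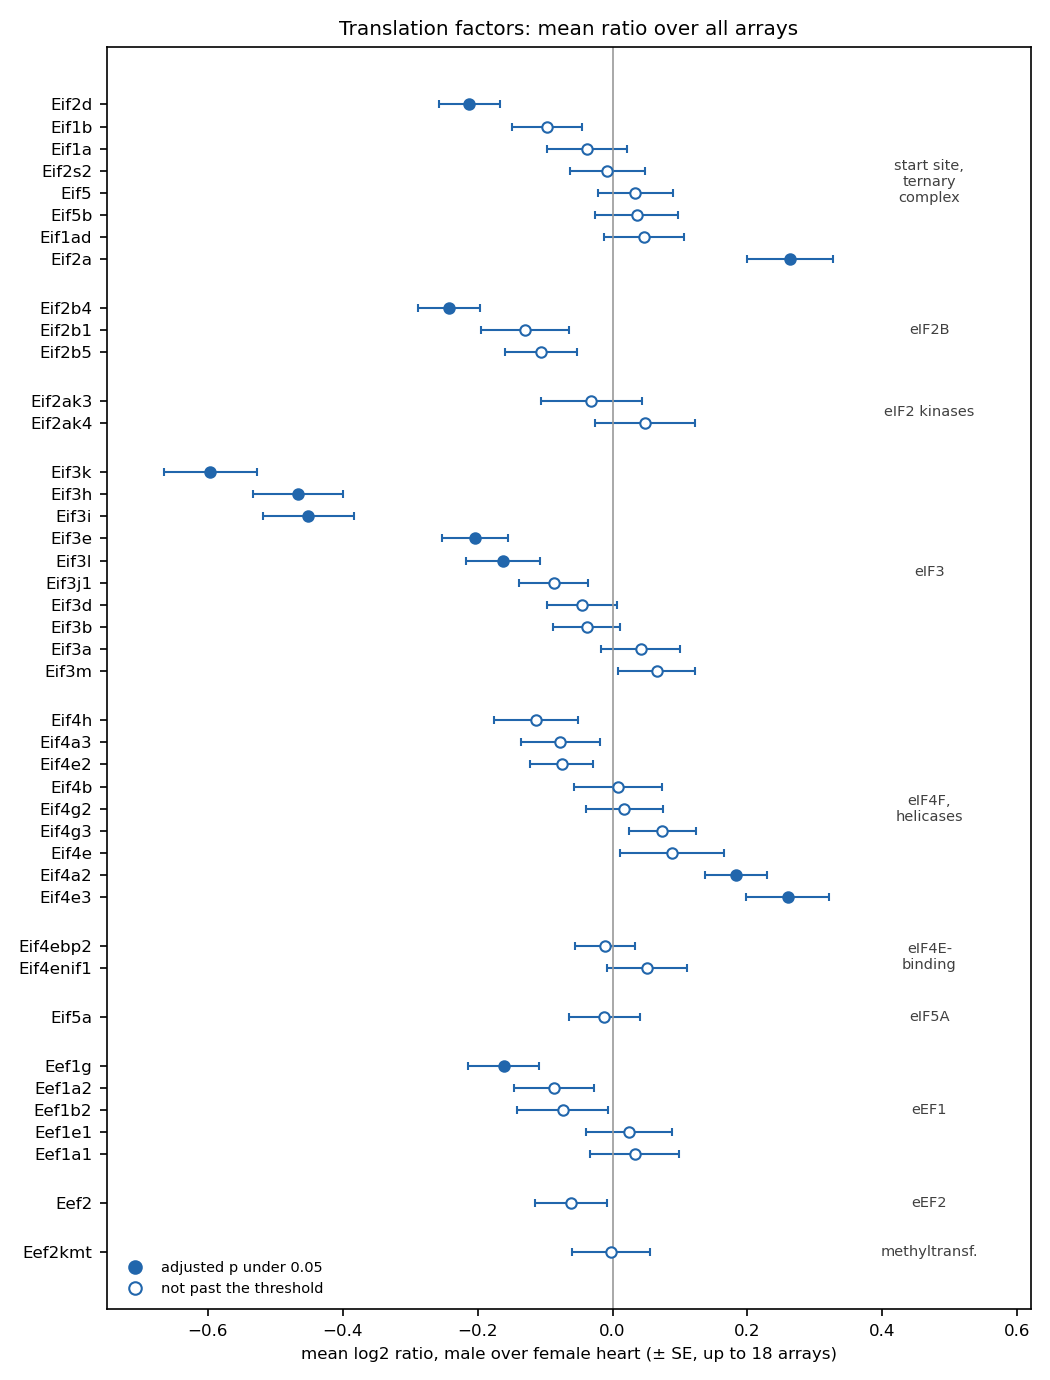
Mean log2 ratio of male over female heart for the 42 tested translation factors (horizontal axis, ± SE), grouped by factor complex down the page, with filled points for genes at an adjusted p under 0.05. Eif3k lies lowest at -0.60 and Eif2a highest at 0.26.

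Among the 10 measured eIF3 subunits, 5 were called lower and none higher, against 18.7% of all units called lower and 8.99% called higher. Mean ratios of the subunits ran from -0.60 for Eif3k to 0.07 for Eif3m. Eif3k encodes a small peripheral subunit. On the CCH arrays its ratios were -1.10 and -1.07 at 1 week, -0.35 and 0.25 at 2 weeks, and -1.75 and -1.26 at 4 weeks. The CIH arrays had -0.69 and -0.66 at 1 week, -0.31 and 0.03 at 2 weeks, and -1.22 and -1.23 at 4 weeks. The control arrays had -0.98 and -0.02 at 1 week, 0.23 and -0.06 at 2 weeks, and -0.27 at 4 weeks on both. The ratio was lowest on the hypoxia arrays of 1 and 4 weeks and on control 1 week replicate 1, higher on all the other arrays, and the conditions overlapped. The mean over all arrays was -0.60 ± 0.07 (SE, n = 18, limma adjusted p = 0.000118, below 0 on 15 of 18 arrays). Relative to the array median, that mean is a 1.51-fold lower signal in the male heart.

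Eif3h encodes a subunit with the MPN domain fold of the eIF3 core. Its ratios on the CCH arrays were -1.42 and -0.68 at 1 week, 0.27 and 0.17 at 2 weeks, and -1.29 and -1.36 at 4 weeks. On the CIH arrays they were -0.56 and -0.52 at 1 week, -0.08 and 0.07 at 2 weeks, and -0.14 and -0.66 at 4 weeks. The control arrays gave -0.79 and 0.00 at 1 week, -0.31 and -0.27 at 2 weeks, and -0.41 and -0.43 at 4 weeks. Of the 5 lowest arrays 4 were CCH arrays of 1 and 4 weeks and 1 was control 1 week replicate 1, while both 2-week CCH arrays lay above every control array. The mean was -0.47 ± 0.07 (SE, n = 18, limma adjusted p = 0.000413).

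Eif3i encodes a subunit built of WD repeats. On the CCH arrays its ratios were -1.22 and -0.91 at 1 week, 0.16 and 0.13 at 2 weeks, and -1.01 and -1.04 at 4 weeks. The 6 CIH arrays had a lowest value of -0.52, a median of -0.34 and a highest value of -0.03, and the 6 control arrays -1.02, -0.22 and -0.02. CIH and control arrays covered overlapping ranges, and the 2-week CCH arrays were the only ones above 0. The mean was -0.45 ± 0.07 (SE, n = 18, limma adjusted p = 0.000613).

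The arrays on which the 3 subunits were low overlapped in part. Eif3k lay below -0.5 on 9 arrays, Eif3h on 8 and Eif3i on 7. All 3 lay below -0.5 on 6 arrays, which were both CCH arrays of 1 week, both CCH arrays of 4 weeks, CIH 4 weeks replicate 2 and control 1 week replicate 1. The 4 CCH arrays among these were in each case among the 6 lowest of the gene. CIH 4 weeks replicate 1, in contrast, had -1.22 for Eif3k but -0.14 for Eif3h and -0.03 for Eif3i. Each of the 3 genes rests on a single spot, so no other clone on the array checks it, whereas 37 of the 47 genes had more than 1 spot. Averaging over spots narrows the ratios of genes with several spots, and sizes are therefore not strictly comparable between genes with 1 and with several spots.

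**Figure D2:**
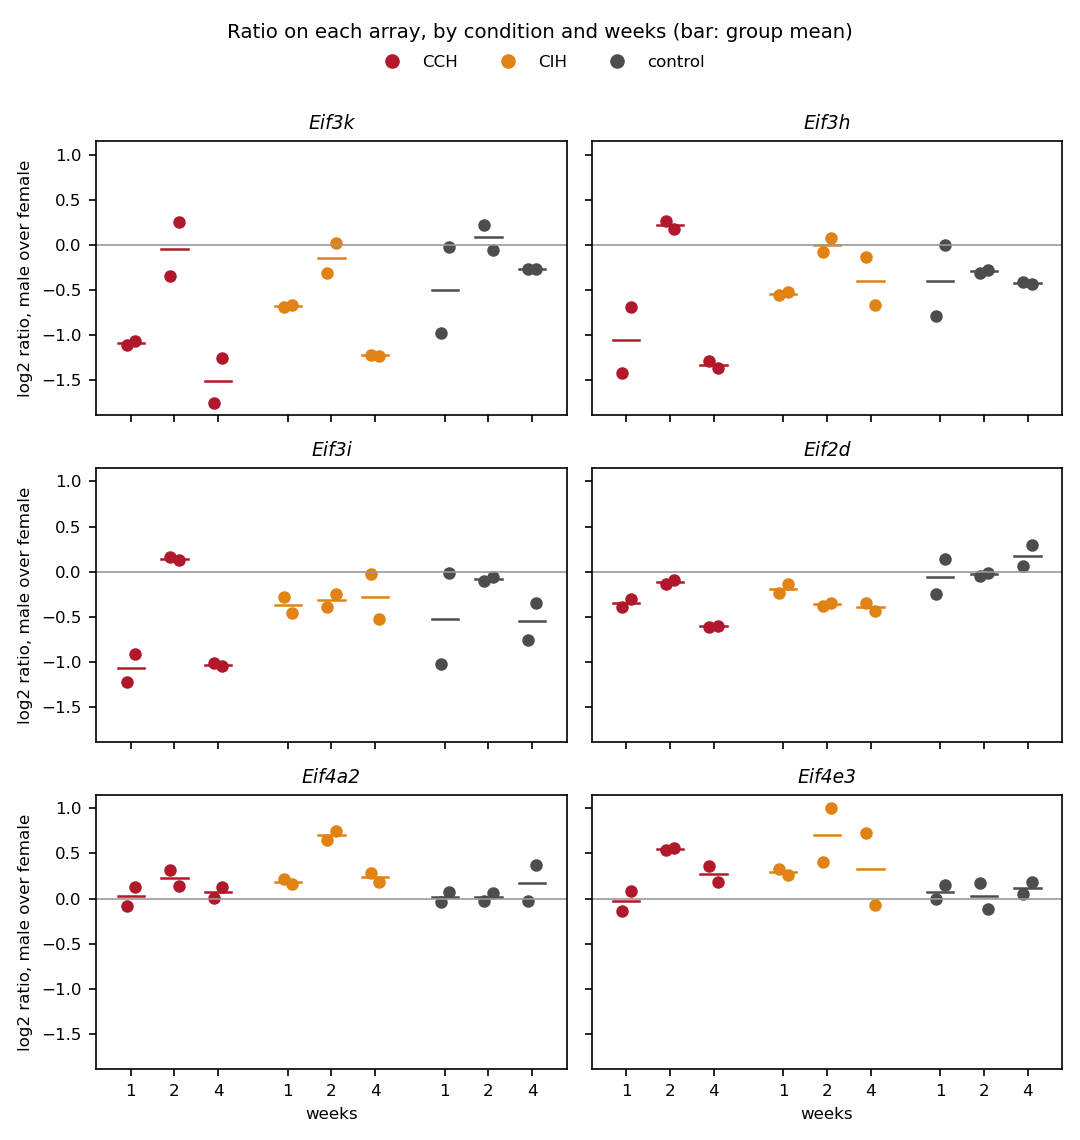
Log2 ratio of male over female heart on each array (points) for 6 translation factor genes, with CCH, CIH and control arrays from left to right, weeks along the horizontal axis and bars for group means. Eif3k, Eif3h and Eif3i lie at -0.68 or lower on the CCH arrays of 1 and 4 weeks and between -0.35 and 0.27 on those of 2 weeks.

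The 2 further eIF3 subunits below 0 were less certain. Eif3e encodes a subunit that contacts the cap-binding factors, and its ratio ran from -0.70 to 0.30 with a median of -0.19, below 0 on 15 of 18 arrays. The mean was -0.20 ± 0.05 (SE, n = 18, limma adjusted p = 0.00853). Its 2 clones had means of -0.19 and -0.21 but ran against each other over the 18 arrays (r = -0.60), and with 1 spot per gene the adjusted p was 0.126. Eif3l, the partner of Eif3k at the edge of the complex, ran from -0.61 to 0.13 with 16 of 18 arrays below 0, and its mean was -0.16 ± 0.05 (SE, n = 18, limma adjusted p = 0.0379). Of its 3 clones 1 had a mean of -0.40 and the others -0.10 and 0.004, and the call was lost without any 1 of 12 arrays.

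The other 5 subunits were not called. Eif3a, the largest subunit and scaffold of the complex, had a mean of 0.04 and 6 clones that correlated with each other between 0.31 and 0.87 over the arrays. Eif3m had a mean of 0.07, Eif3b -0.04, Eif3d, which can itself bind the cap, -0.05 and Eif3j1 -0.09.

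Promoter sequence was taken from RefSeq (mouse build GRCm38.p6) for called genes with an entry and is shown for the called genes so that their start regions can be compared. Each stretch is the 100 bases that end before the start, taking the more upstream of the promoter table's start and the gene record's start, 5′ to 3′ on the gene's strand, and capitals mark matches of the motifs searched. Eif3k (chr7:28981891-28981990, minus strand), Eif3l (chr15:79075123-79075222, plus strand) and Eif2d (chr1:131153072-131153171, plus strand) were lower in the male heart. Eif4a2 (chr16:23107368-23107467, plus strand) and Eif2a (chr3:58525721-58525820, plus strand) were higher.
Eif3k: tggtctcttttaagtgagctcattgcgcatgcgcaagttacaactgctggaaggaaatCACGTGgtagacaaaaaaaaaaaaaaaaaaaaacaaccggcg
Eif3l: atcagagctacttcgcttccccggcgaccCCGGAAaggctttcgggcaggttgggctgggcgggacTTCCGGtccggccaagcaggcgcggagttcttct
Eif2d: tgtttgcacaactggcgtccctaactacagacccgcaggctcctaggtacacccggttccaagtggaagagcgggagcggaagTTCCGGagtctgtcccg
Eif4a2: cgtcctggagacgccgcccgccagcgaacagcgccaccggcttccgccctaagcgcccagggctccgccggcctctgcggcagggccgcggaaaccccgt
Eif2a: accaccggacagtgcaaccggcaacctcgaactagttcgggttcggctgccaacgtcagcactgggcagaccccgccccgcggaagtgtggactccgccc
The stretch of Eif3k holds ACGTG on both strands in 1 overlapping palindrome. That of Eif3l holds CCGGAA in 2 places and that of Eif2d in 1, while no motif was found in these 100 bases of the last 2. Over the 250 bases before the promoter table's start, Eif4a2 held GCGTG and CCGGAA and Eif2a held GCGTG. In that window Eif3k held ACGTG and GCGTG, Eif3l held GCGTG and CCGGAA, and Eif2d held CCGGAA.

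Over the 250 bases before the promoter table's start, 38 of the 47 genes had an entry, among 27025 promoters. ACGTG, the core letters of the hypoxia response element, was present on either strand in 13 of the 38 genes (34.2%), against 16.6% of all promoters. GCGTG, the other form of that core, was present in 20 (52.6%), against 28.2%. CCGGAA, the core of ETS factor sites, was present in 12 (31.6%), against 12.2%, and TATAAA in 2 (5.3%), against 13.0%. The promoters of the 38 genes also had a median GC content of 62.4%, against 52.0% for all promoters. These matches describe letters in a window and are not binding sites.

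Among the start-site and ternary complex factors, 1 gene was called higher and 1 lower of 8, against 8.99% of all units called higher and 18.7% called lower. Eif2d encodes a factor that can deliver tRNA without eIF2 and recycles ribosomes. Its ratios were -0.39 and -0.31 at 1 week, -0.13 and -0.09 at 2 weeks, and -0.61 and -0.60 at 4 weeks on the CCH arrays. On the CIH arrays they were -0.23 and -0.14 at 1 week, -0.38 and -0.35 at 2 weeks, and -0.35 and -0.44 at 4 weeks. The controls had -0.25 and 0.14 at 1 week, -0.04 and -0.01 at 2 weeks, and 0.06 and 0.29 at 4 weeks. All 12 hypoxia arrays lay below 0, and the controls lay on both sides of it, with control 1 week replicate 1 inside the hypoxia range. The mean over all arrays was -0.21 ± 0.05 (SE, n = 18, limma adjusted p = 0.00438). The value rests mainly on 1 clone, since the other had values only on the 1-week CCH and control arrays. On the clone with values on all 18 arrays, control 1 week replicate 1 was at -0.65, below every hypoxia array, and control 1 week replicate 2 at -0.07.

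Eif2a, which despite its symbol is not a subunit of eIF2 and encodes an alternative tRNA-binding factor, was higher in the male heart. Its 6 CCH arrays had a lowest ratio of -0.02, a median of 0.16 and a highest ratio of 0.92, and the 6 CIH arrays -0.12, 0.41 and 0.93. The controls had -0.17, -0.06 and 0.69. The arrays above 0.5 were both 4-week CCH arrays, both 2-week CIH arrays, CIH 4 weeks replicate 1 and control 4 weeks replicate 2. The mean was 0.26 ± 0.06 (SE, n = 18, limma adjusted p = 0.00846), its 3 clones had means of 0.23 to 0.29, and the call was lost with quantile normalization (adjusted p = 0.0716). The other factors of this class were not called, and Eif1b at -0.10, Eif1a at -0.04 and Eif2s2, the beta subunit of eIF2, at -0.01 lay below 0. Eif5 at 0.03, Eif5b, which joins the ribosomal subunits, at 0.04 and Eif1ad at 0.05 lay above it.

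All 3 tested subunits of the exchange factor eIF2B had means below 0, and 1 was called lower, against 18.7% of all units. Eif2b4, the delta subunit, had ratios of -0.27 and -0.37 at 1 week, -0.06 and -0.08 at 2 weeks, and -0.97 and -0.82 at 4 weeks on the CCH arrays. The 6 CIH arrays ran from -0.33 to 0.12 with a median of -0.09, and the 6 controls from -0.30 to -0.07 with a median of -0.26. The 4-week CCH arrays lay well below all others. The mean was -0.24 ± 0.05 (SE, n = 18, limma adjusted p = 0.00244), and its 3 clones had means of -0.20, -0.26 and -0.29. Eif2b1 had a mean of -0.13 and Eif2b5, the catalytic subunit, -0.11, neither past the threshold.

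Eif2b2, the beta subunit of eIF2B, was not tested because both 4-week CCH arrays lacked a value. The ratios of this gene, singled out after its values were seen, were -0.88 and -0.71 at 1 week and 0.04 and -0.14 at 2 weeks on the CCH arrays. The CIH arrays had -1.56 and -1.31 at 1 week, -0.46 and -0.34 at 2 weeks, and -0.42 on the only 4-week array with a value. The controls had -0.81 and -0.36 at 1 week, -0.47 and -0.22 at 2 weeks, and -0.31 at 4 weeks. The gene was thus below 0 on 13 of 14 arrays, with a mean of -0.57 ± 0.45 (SD, n = 14 arrays). Its 2 clones had means of -0.48 and -0.64 and a correlation of 0.68 over 11 arrays. When units with values on 9 or more arrays entered the fit, it lay below 0 on the CIH arrays (-0.75, limma adjusted p = 0.0049) and rose at 2 weeks against 1 week of hypoxia (0.89, adjusted p = 0.026). Eif2b3, the gamma subunit, had a mean of -0.16 ± 0.30 (SD, n = 15 arrays) and its lowest value of -0.69 on a 2-week CIH array, and in the same fit it lay below 0 on the CIH arrays (-0.40, adjusted p = 0.0153).

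Both kinases of eIF2 on the array lay near 0, with means of -0.03 for Eif2ak3 (PERK, the kinase of the endoplasmic reticulum) and 0.05 for Eif2ak4 (GCN2, which senses uncharged tRNA). The 2 clones of Eif2ak3 disagreed, with a mean of 0.19 on 13 arrays and -0.54 on 9 arrays. On the 4-week CCH arrays its value came from the first clone and on the only 4-week control array with a value from the second. The 2-week CCH arrays averaged both clones, while the only 2-week control array with a value had the first alone. Both clones had values on the 1-week hypoxia arrays, but only the first on those of 4 weeks. Its differences for CCH at 2 weeks, at 4 weeks and for 4 weeks minus 1 week therefore set different spots against each other.

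Of 9 genes for cap-binding and helicase factors, 2 were called higher and none lower, against 8.99% of all units called higher and 18.7% called lower. Eif4e3, a relative of the cap-binding protein eIF4E, had ratios of -0.14 and 0.09 at 1 week, 0.54 and 0.56 at 2 weeks, and 0.36 and 0.18 at 4 weeks on the CCH arrays. On the CIH arrays they were 0.33 and 0.26 at 1 week, 0.41 and 1.01 at 2 weeks, and 0.73 and -0.07 at 4 weeks, and the 6 controls ran from -0.12 to 0.18 with a median of 0.10. The hypoxia arrays of 2 weeks lay above every control array and those of 1 and 4 weeks overlapped the controls. The mean was 0.26 ± 0.06 (SE, n = 18, limma adjusted p = 0.00813), and its 2 clones, with means of 0.36 and 0.16, correlated at 0.86 over the 18 arrays.

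Eif4a2, an RNA helicase of the cap-binding complex, had ratios of -0.08 and 0.13 at 1 week, 0.32 and 0.14 at 2 weeks, and 0.01 and 0.13 at 4 weeks on the CCH arrays. On the CIH arrays they were 0.21 and 0.16 at 1 week, 0.65 and 0.75 at 2 weeks, and 0.28 and 0.18 at 4 weeks. The 6 controls ran from -0.03 to 0.37 with a median of 0.02. All 6 CIH arrays lay above 5 of the 6 controls, and control 4 weeks replicate 2 lay inside their range. The mean was 0.18 ± 0.05 (SE, n = 18, limma adjusted p = 0.0107), and quantile normalization ended the call (adjusted p = 0.0551). Eif4a2 rests on a single spot, so no other clone on the array checks it. The remaining 7 genes ran from -0.11 for Eif4h, a helper of the helicase, to 0.09 for Eif4e, the main cap-binding protein. The repressors Eif4ebp2 and Eif4enif1, which bind eIF4E, had means of -0.01 and 0.05.

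Of the elongation factors, Eef1g was called lower. It encodes the gamma subunit of the exchange complex eEF1B, and its gene mean was -0.16 ± 0.05 (SE, n = 18, limma adjusted p = 0.0342, below 0 on 15 of 18 arrays). The call was lost without any 1 of 9 arrays. Its spots with values on all 18 arrays had means from -0.34 to 0.03. A further clone, with values on 13 arrays, had a mean of 0.07 and ran against the other clones it could be compared with (r = -0.60 with each). The tRNA carriers Eef1a1 and Eef1a2 (the form of adult muscle) had means of 0.03 and -0.09, and Eef1b2 and Eef1e1 -0.07 and 0.02. Eef2, the translocase, was at -0.06, Eef2kmt, which methylates it, at -0.002 and Eif5a, which helps at stalling sites, at -0.01. Eef2k, the kinase that inhibits eEF2, had values on 9 arrays, which ran from -0.26 to 0.93 with a median of -0.03. Eif5a2 averaged 0.01 ± 0.17 and Eif6, which keeps the large ribosomal subunit apart, 0.06 ± 0.41 (SD, n = 14 and 15 arrays).

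Spots of one clone and of different clones of a gene show how far such values repeat within an array. Pairs of spots of the same clone (10 pairs in 3 genes) differed by a median of 0.18 on the log2 scale. Their correlation over arrays had a median of 0.46 and ran from 0.19 to 0.91. Pairs of different clones (96 pairs in 29 genes) differed by a median of 0.27, and their correlation over arrays had a median of 0.43 and was below 0 in 20 pairs.

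Within single conditions the calls were fewer. On the control arrays no gene was called (0 of 42, against 0.00974% of all units, and 4 genes or 9.5% at an unadjusted p under 0.05, against 9.15% of all units). Eif3i had the smallest p with a mean of -0.38 ± 0.12 (SE, n = 6, limma adjusted p = 0.328), followed by Eif3h at -0.37, Eif2b4 at -0.21, Eif3e at -0.21 and Eif2b1 at -0.24. Without control 1 week replicate 2, Eif3i alone was called (-0.55, limma adjusted p = 0.0448).

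On the CCH arrays 5 of 42 genes were called, all of them lower (11.9%, against 10.8% of all units, 2.89% called higher and 7.89% called lower). Eif3k averaged -0.88 ± 0.12 (SE, n = 6, limma adjusted p = 0.0016), Eif3h -0.72 (adjusted p = 0.00327), Eif3i -0.65 (adjusted p = 0.0058) and Eif2b4 -0.43 (adjusted p = 0.00698). Eif2d averaged -0.36 (adjusted p = 0.0133), and this call was lost without either 2-week CCH array or CCH 4 weeks replicate 1. Scaling the arrays to a common spread left 3 calls, those of the eIF3 subunits.

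On the CIH arrays 5 of 42 genes were called, 3 higher and 2 lower (11.9%, against 12.1% of all units, 3.73% called higher and 8.37% called lower). Eif3k averaged -0.68 ± 0.12 (SE, n = 6, limma adjusted p = 0.0058) and Eif2d -0.31 (adjusted p = 0.0204). Eif4e3 averaged 0.44 (adjusted p = 0.0182), Eif2a 0.41 (adjusted p = 0.0277) and Eif4a2 0.37 (adjusted p = 0.011). The call of Eif3k alone held without CIH 1 week replicate 1, CIH 2 weeks replicate 2 or CIH 4 weeks replicate 1, and 2 calls held when the first of these was regrouped by its source names. On the same arrays the red cell markers Alas2 and Slc4a1 (2 of the 11 listed could be tested) averaged -1.43 and -1.45. Their median per array ran from -2.63 to -0.12 on CIH arrays, from -2.03 to 1.64 on CCH arrays and from -0.54 to 1.19 on control arrays. Their part in the result was not tested.

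Whether hypoxia altered the ratio is asked by the differences from control, averaged over the 3 durations. For CCH minus control no gene was called (0 of 42, against 0.0% of all units), and 3 of 42 genes (7.1%) had an unadjusted p under 0.05, against 6.32% of all units. Eif3k averaged -0.88 on CCH arrays and -0.23 on control arrays, a difference of -0.65 ± 0.17 (SE, n = 6 each, limma adjusted p = 0.699). The difference of Eif2d was -0.39 ± 0.11 (adjusted p = 0.699), that of Eif3h -0.35 ± 0.16, that of Eif2b4 -0.21 ± 0.11 and that of Eif5a 0.22 ± 0.13 (adjusted p = 0.749 each). These 5 genes did not pass the test, and their differences ran in both directions.

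For CIH minus control no gene was called (0 of 42, against 0.00974% of all units), while 7 of 42 (16.7%) had an unadjusted p under 0.05, against 12.7% of all units. Eif2d averaged -0.31 on CIH arrays and 0.03 on control arrays, a difference of -0.35 ± 0.11 (SE, n = 6 each, limma adjusted p = 0.153). Of its 2 clones, 1 had values on the 1-week control arrays (0.16 and 0.35) but on no CIH array, so unlike spots were compared. The other clone had -0.65 and -0.07 on those control arrays. The difference was 0.44 ± 0.15 for Eif5b (adjusted p = 0.201), 0.41 ± 0.14 for Eif3a (adjusted p = 0.223), 0.31 ± 0.11 for Eif4a2 (adjusted p = 0.261) and -0.45 ± 0.17 for Eif3k (adjusted p = 0.269). The difference lay above 0 for 32 of the 42 genes, with a median of 0.08, against -0.01 over all units. Both comparisons use the same control arrays.

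**Figure D3:**
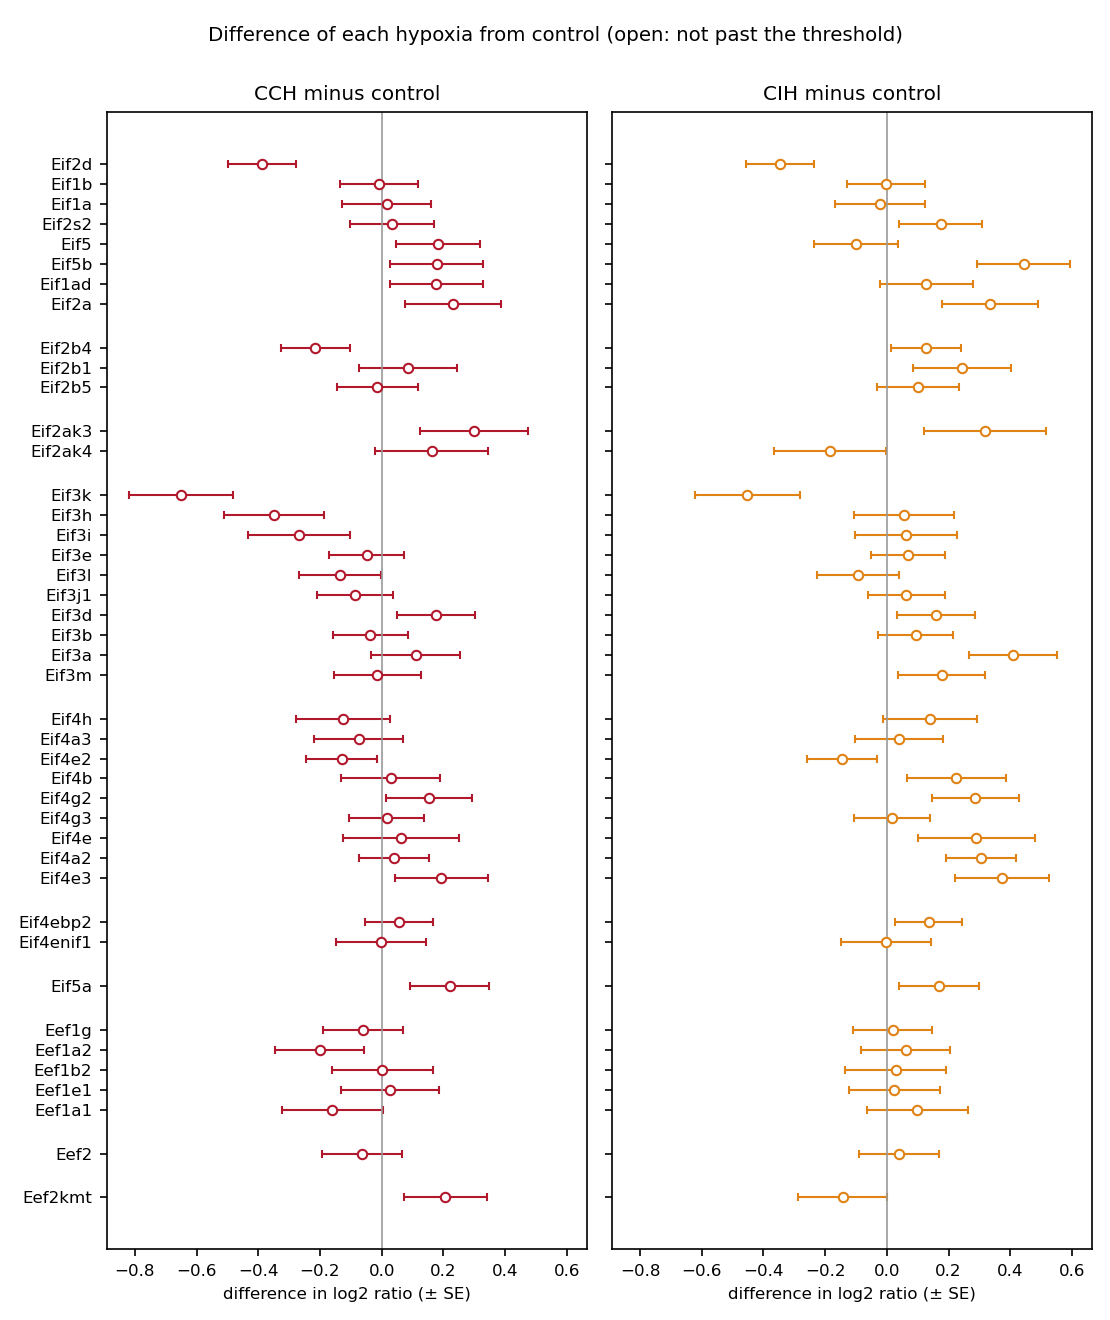
Difference in log2 ratio (horizontal axis, ± SE) of CCH minus control (left) and CIH minus control (right) for the 42 tested genes down the page, all drawn open because none passed the threshold. Eif3k lies at -0.65 and -0.45, and Eif2d at -0.39 and -0.35. For Eif2d, CIH minus control compares an unlike mix of clones.

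The 2 kinds of hypoxia did not separate any of the genes by the test (CCH minus CIH, 0 of 42, against 0.00974% of all units, and 4 genes or 9.5% at an unadjusted p under 0.05, against 9.28% of all units). Eif2b4 averaged -0.43 on CCH arrays and -0.09 on CIH arrays, a difference of -0.34 ± 0.11 (SE, n = 6 each, limma adjusted p = 0.259). The difference of Eif3h was -0.40 ± 0.16 (adjusted p = 0.416), of Eef2kmt 0.35 ± 0.14, of Eif4a2 -0.27 ± 0.11 and of Eif3a -0.30 ± 0.14.

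Taken by single duration, no gene passed in any of the 6 comparisons with control (0 of 42, against 0.0292% of all units called in any of the 6, and 0.0195% for CCH at 2 weeks, where those units were lower). Under CCH 1 gene (2.4%) had an unadjusted p under 0.05 at 1 week, against 6.15% of all units, and 1 gene (2.4%) at 2 weeks, against 9.38%. At 4 weeks of CCH there were 8 (19.0%), against 15.1%. At 4 weeks of CCH the difference was -1.23 ± 0.29 for Eif3k, -0.78 ± 0.19 for Eif2d, -0.63 ± 0.19 for Eif2b4 and -0.91 ± 0.28 for Eif3h (SE, n = 2 each, limma adjusted p from 0.119 to 0.209). Eif2ak3 was at 1.44 (adjusted p = 0.124), a value that compares different clones. At 4 weeks of CIH the difference was -0.95 ± 0.29 for Eif3k and -0.57 ± 0.19 for Eif2d (limma adjusted p = 0.187 and 0.247). It was -0.61 for Eif4g3 and 0.45 for Eif2s2, and Eif2ak3, again on different clones, was at 1.24 (adjusted p = 0.212). For Eif4g3, 1 of its 2 clones had values on both 4-week control arrays but on neither 4-week CIH array, so unlike spots were compared there too.

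At 2 weeks of CIH 6 genes (14.3%) had an unadjusted p under 0.05, against 22.7% of all units, at 4 weeks 4 (9.5%), against 8.14%, and at 1 week none, against 2.34%. At 2 weeks of CIH the 5 differences of smallest p were 0.96 ± 0.27 for Eif2a, 0.68 ± 0.20 for Eif4a2, 0.78 ± 0.25 for Eif3a, 0.81 ± 0.26 for Eif5b and 0.68 ± 0.26 for Eif4e3 (SE, n = 2 each, limma adjusted p from 0.117 to 0.169). At 2 weeks of CCH, Eif2ak3, on an unlike mix of clones, was at -0.92, Eif2b1 at 0.56, Eif4e3 at 0.52, Eif3h at 0.51 and Eif4g2 at 0.48. At 1 week of CCH, Eif3h was at -0.66, Eif3k at -0.59, Eif3i at -0.55, Eef1a2 at -0.50 and Eif1b at 0.46. At 1 week of CIH the 5 differences of smallest p ran from 0.23 for Eif5a to 0.34 for Eif3b. No duration gave a call.

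The only called change between groups was that from 1 to 2 weeks of hypoxia. Arrays of 2 weeks also had fewer spots with values than those of 1 week (15802 to 19720 against 20489 to 24512). Duration and a difference between sets of arrays cannot be told apart. Within the hypoxia arrays, 2 of 42 genes rose at 2 weeks against 1 week (4.8%, against 10.9% of all units, 4.67% called higher and 6.25% called lower). At an unadjusted p under 0.05 there were 13 genes (31.0%), against 36.1% of all units. Eif3h averaged 0.11 on the hypoxia arrays of 2 weeks and -0.80 on those of 1 week, a difference of 0.91 ± 0.20 (SE, n = 4 each, limma adjusted p = 0.0299). Eif3k averaged -0.09 on those of 2 weeks and -0.88 on those of 1 week, a difference of 0.79 ± 0.21 (adjusted p = 0.0363). For both genes all hypoxia arrays of 2 weeks lay above all those of 1 week. Eif3i was at 0.63 (adjusted p = 0.0546), Eif4g2, a relative of the scaffold eIF4G that works without the cap-binding protein, at 0.49 and Eef1a2 at 0.50.

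The median difference of the 42 genes was 0.24, against -0.02 over all units, and 32 genes were above 0. On the control arrays Eif3h averaged -0.29 at 2 weeks and -0.40 at 1 week, Eif3k 0.08 at 2 weeks and -0.50 at 1 week, and Eif3i -0.08 at 2 weeks and -0.52 at 1 week. These control groups were not compared by a test, and all 3 genes were higher at 2 weeks there as well. Both calls were lost when CIH 1 week replicate 1 was regrouped by its source names, which say 2 weeks of CCH. Both were also lost without CCH 1 week replicate 1, CCH 2 weeks replicate 1, CIH 1 week replicate 2 or CIH 2 weeks replicate 2, and that of Eif3k was also lost without CCH 2 weeks replicate 2 or CIH 1 week replicate 1. The number of calls was 4 with 1 spot per gene. The same number was reached with spots present on all 18 arrays, an alternative chosen after seeing the data.

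From 1 to 4 weeks no gene was called, neither under hypoxia (0 of 42, against 0.0% of all units) nor in controls (0 of 42, against 0.0%). At an unadjusted p under 0.05 there were 6 genes (14.3%) under hypoxia, against 13.0% of all units. Under hypoxia the differences of 4 weeks minus 1 week with the smallest p were 0.52 for Eif2ak3, 0.46 for Eif2a, 0.39 for Eef2kmt, -0.48 for Eif3k and 0.35 for Eif3d (limma adjusted p from 0.361 to 0.367). That of Eif2ak3 again compares an unlike mix of clones. In controls, Eif5a had a difference of 0.51 (adjusted p = 0.936) and was the 1 gene (2.4%) with an unadjusted p under 0.05, against 4.47% of all units. The next 4 by p were Eif2b5 at -0.43, Eif2a at 0.49, Eif3e at 0.32 and Eif3l at 0.35, each with the same adjusted p. An F test of whether the difference between hypoxia and control depends on duration called none (0 of 42, against 0.0% of all units), with the smallest adjusted p of 0.381 for Eif4g3 and Eif2ak3. For both genes, different clones entered on different arrays.

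Other genes of translation were set beside the factors. Over all arrays, 28 of 59 cytosolic ribosomal protein genes were called lower and 1 higher (median -0.17), against 18.7% of all units called lower and 8.99% called higher. On CCH arrays 22 were called lower and none higher, against 7.89% and 2.89% of all units. Their median per array ran from -0.51 to -0.09 on CCH arrays, from -0.31 to 0.02 on CIH arrays and from -0.57 to 0.14 on control arrays. For the translation factors those medians ran from -0.23 to 0.07 on CCH arrays, from -0.13 to 0.09 on CIH arrays and from -0.21 to 0.02 on control arrays. The lowest ribosomal protein medians were those of control 1 week replicate 1 and of both 4-week CCH arrays, on which Eif3k, Eif3h and Eif3i were low as well. On the 1-week CCH arrays, where the 3 subunits were also low, the ribosomal medians were -0.21 and -0.25, above the -0.31 of CIH 1 week replicate 2.

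**Figure D4:**
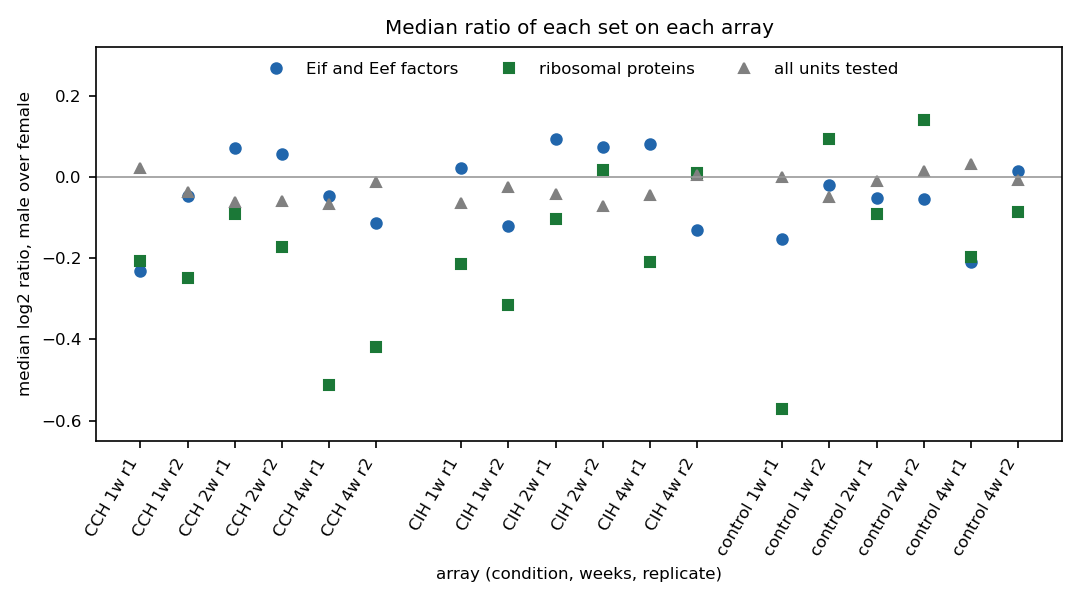
Median log2 ratio of male over female heart on each of the 18 arrays (vertical axis) for the 42 tested translation factors, the cytosolic ribosomal proteins and all units tested, with CCH, CIH and control arrays from left to right. Ribosomal proteins reach -0.51 and -0.42 on the 4-week CCH arrays and -0.57 on control 1 week replicate 1, while the translation factors stay between -0.23 and 0.09.

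The smaller lists are read against the 27.7% of all units called over all arrays. Among poly(A)-binding genes 1 of 5 was called higher and 1 lower over all arrays, with Pabpc4 at 0.34 and Paip2, an inhibitor of the poly(A)-binding protein, at -0.22. Pabpc1, the main poly(A)-binding protein, was at 0.41 on CCH arrays (limma adjusted p = 0.0492) and at -0.59 on CIH arrays (adjusted p = 0.0113). Of 8 mTOR pathway genes, 2 were called lower, which were Tsc2, an inhibitor of mTOR, and the ribosomal protein gene Rps6, both at -0.21. Of 3 genes of the stress response downstream of eIF2 kinases, Atf4 was called higher (0.23) and Ddit3 lower (-0.34). Of 5 mitochondrial translation factors, Tufm (-0.25) and Mrrf (-0.27) were called lower. None of 3 termination and recycling genes was called, with a median of 0.05. In none of these lists was a gene called for CCH minus control, CIH minus control or CCH minus CIH. The smallest limma adjusted p of a poly(A)-binding gene for CCH minus CIH was 0.134. For 2 weeks minus 1 week of hypoxia, Pabpc1 was called lower (limma adjusted p = 0.034), as were 6.25% of all units.

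Leukocyte markers leaned in the same direction as the called eIF3 subunits. Of 10 listed, 6 were tested and 5 called lower over all arrays (median -0.36), against 18.7% of all units called lower. Their median per array ran from -1.12 to -0.11 on CCH arrays, from -0.74 to -0.09 on CIH arrays and from -0.61 to 0.10 on control arrays. Of 5 fibroblast markers, Col3a1 was called higher (0.19) and Dcn lower (-0.29), and neither of the 2 tested skeletal muscle markers nor the 1 tested lung marker was called. The part of these cells in the ratios of the translation factors was not tested.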

How the data were processed

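Per the labels, each of 18 two-colour cDNA arrays paired male (Cy5) and female (Cy3) heart cDNA. The deposited values are log2 ratios per spot that the authors scaled to a linear mean of 1 on each array, which was settled from the values with base 2. Background correction, spot filter and normalization are not given in the sources used here. Array medians were subtracted, and the spots sharing a symbol were then averaged, so with gaps a mean can rest on different spots. Among 28704 spots there were 18511 with 1 symbol, 937 with several and 9256 unnamed. Units with a value in each of 9 groups (10272, of them 6945 named genes) entered a linear model (limma 3.58.1, R 4.3.3, lmFit on group means, contrasts, eBayes, two-sided, Benjamini-Hochberg adjustment over all units, threshold 0.05), and the fit was tested on simulated data. The number of arrays limits the precision. Genes were named if called, or up to 5 of smallest p where fewer than 5 were called, plus the extremes of each complex, and the remaining genes are given by their mean. Members, lists and tests were chosen with earlier results of these data known. The alternatives (10 ways of processing and each of 18 arrays left out) are given at the end. Promoters were searched in Python 3.11.15 and figures drawn with matplotlib 3.10.9.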

Additional observations from a re-analysis of the deposited data

Results flagged for a closer look

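In 33 groups of 6 arrays checked for a single array far from the rest (Dixon's criterion at 95%, which chance meets in about 1 of 20 groups), 2 stood out, both among controls. Eif3l was at -0.61 on control 1 week replicate 1, while the other 5 control arrays ran from -0.05 to 0.13. Eif4a2 was at 0.37 on control 4 weeks replicate 2, while the others ran from -0.03 to 0.07.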

How the results depend on the processing

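Scaling the arrays to a common spread left 3 calls on CCH arrays, 2 on CIH arrays and 1 for 2 weeks minus 1 week of hypoxia. Grouping CIH 1 week replicate 1 by its source names left 2 calls on CIH arrays and 0 for 2 weeks minus 1 week, where 1 spot per gene and spots with a value on all 18 arrays (chosen after seeing the data) each gave 4. With 1 spot per gene Eif3l turned to 0.00422. The cause of these shifts was not tested, apart from the other spots and arrays that enter by construction. The called genes split into 3 higher and 8 lower over all arrays, 3 and 11 without centring and 1 and 10 with quantile normalization, where the median of the genes was -0.09. Leaving out each array in turn gave 9 to 11 calls over all arrays, 0 to 1 on control arrays, 4 to 6 on CCH arrays, 1 to 7 on CIH arrays and 0 to 4 for 2 weeks minus 1 week, and 0 in the other comparisons. The replicate numbers do not pair the arrays (correlations of deviations from -0.56 to 0.46, over 0.1 in 15 of 36 pairs). They follow the letters in the titles, apart from CCH 1 week replicate 1 and CCH 2 weeks replicate 1, whose titles carry no letter. With the numbers as a replicate block the counts were 11, 0, 5, 5 and 2 in the same order and 0 elsewhere. With 2 arrays in a group and ratios only, small shifts in single groups were not detectable at this number of arrays.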
